A study of Mus musculus with 62 samples.

Results

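The transcription factor gene Trp53 and 9 of its target genes were examined in mouse hippocampus and in HT-22 cells. The 10 genes are Trp53, Cdkn1a, Mdm2, Ccng1, Bax, Bbc3, Gadd45a, Trp53inp1, Sesn1 and Zmat3, chosen by name among the 53975 gene identifiers of the long-RNA tables, and each matched 1 identifier. Long RNA depleted of ribosomal RNA was sequenced from 17 mice, with the left and right hippocampus of a mouse pooled, and from 14 cultures of HT-22, a mouse hippocampal cell line at passage 4. The short-RNA libraries of the same series were not used.

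The APP mice carried the strain label APP NL-G-F, an amyloid model with a mutated App gene, and the WT mice were C57BL/6J. Mice were 3, 6 or 12 months old, with 3 animals per strain and age except for WT at 3 months, which had 2. All HT-22 groups received a locked nucleic acid (LNA) oligonucleotide for 24 h and then 30 uM of a peptide dissolved in DMSO. The LNA was anti-Hsf1 at 150 nM or scramble, which the labels give at 50 uM, so the LNAs also differ in stated dose. The peptide was amyloid beta 1-42 (A-beta 42) or the same residues in reverse order. The groups were A-beta 42 with scramble (4 libraries), reverse peptide with scramble (4), A-beta 42 with anti-Hsf1 (3) and reverse peptide with anti-Hsf1 (3), described by the submitters as biological replicates. The labels give no group without LNA or without peptide.

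p53, the product of Trp53, is a transcription factor that is held at a low level by the ubiquitin ligase Mdm2 and accumulates after DNA damage and other stresses. It then raises the transcription of genes that stop the cell cycle, repair DNA, limit oxidative and metabolic stress or start apoptosis, and of Mdm2 itself, which closes a negative feedback loop. Because p53 is controlled mainly as a protein, the RNA of its targets is a commoner readout of its activity than its own RNA, and many of the targets also respond to other factors.

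Levels are in TPM, a unit corrected for transcript length and library size in which the authors deposited them, after scaling of each library by the median of its ratios to the other libraries of the same system (scaled TPM). Scaling factors were 0.688 to 1.46 for the mice and 0.639 to 1.23 in HT-22, and the part of TPM in protein-coding genes was 26.6% to 51.0% and 30.1% to 61.8%. Relative depth, the ratio of coverage to FPKM, was 1.42 to 3.04 for the mice and 0.724 to 2.60 for HT-22. The mouse libraries held all 6 neuron markers at a summed level of 1299 to 2069 scaled TPM. The HT-22 libraries held none of the 6 at a mean of 1 or more, with sums of 0 to 0.537, and had 10 of 10 proliferation genes at a sum of 1023 to 1173, so the label of a hippocampal line was not matched by neuron markers. Hsf1, the target of the LNA, had group means of 61.6 ± 9.31 scaled TPM (SD, n = 4) for A-beta 42 scramble and 47.2 ± 4.07 (SD, n = 3) for A-beta 42 anti-Hsf1. The means for reverse peptide were 53.8 ± 7.89 (SD, n = 4) and 48.2 ± 4.81 (SD, n = 3). The log2 changes were -0.37 and -0.15, each with an SE of 0.14, and neither passed the test over all genes (limma adjusted p 0.52 and 0.959). Hsf1 was thus lower in the mean under anti-Hsf1 with both peptides, but a knockdown was not established, and the groups are named by their label. In bulk RNA, fewer cells of a type and less RNA per cell cannot be told apart.

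Xist was at 70.6 to 137 scaled TPM in every APP library and in both WT libraries of 3 months, and Ddx3y, on the Y chromosome, was at 18.8 to 28.2 in the 6 WT libraries of 6 and 12 months and at most 0.0797 in the others. Genotype at 6 and 12 months therefore cannot be told apart from the presence of Y-linked RNA. In HT-22, 3 scramble libraries stood apart in immediate-early genes (Fos, Egr1, Junb, Ier2 and Arc): the summed level was 638 and 702 scaled TPM in A-beta 42 numbers 3 and 4 and 817 in reverse peptide number 4, against 58.9 to 94.3 in the other 11. Those 3 libraries had a relative depth of 1.203 to 2.60, against 0.724 to 1.21 in the others, and 55.7% to 61.8% of TPM in protein-coding genes, against 30.1% to 54.3%. Values without them, a choice made after seeing the data, stand beside the HT-22 comparisons that use scramble libraries.

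The promoters of the members are shown here to describe their sequence, and the motifs were not tested against the levels. RefSeq windows of 300 bases (GRCm38.p6, 250 before to 50 after a start) were held for 8 of the 10 members, 12 windows in all, and Trp53inp1 and Zmat3 had none in the table used. The 10-base p53 decamer (purines, C, A or T, G, pyrimidines), whose pattern reads the same on both strands, was searched without mismatches. It was present in 7 of the 12 windows, in 1 window for each of 7 members, and in 8.36% of all 32851 windows. The members were chosen by name as p53 targets, so a higher share among them can come from that choice and is not a result of these data. Only Bbc3 among the 8 had none in its 3 windows. The matches are in capitals, each sequence reads 5′ to 3′ on the gene's strand, and for Trp53, Gadd45a and Sesn1 only 10 bases on either side are shown:
Cdkn1a, chr17:29090871-29090972, plus strand: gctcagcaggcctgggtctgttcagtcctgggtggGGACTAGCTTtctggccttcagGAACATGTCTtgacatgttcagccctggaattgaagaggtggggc
Mdm2, chr10:117710900-117710979, minus strand: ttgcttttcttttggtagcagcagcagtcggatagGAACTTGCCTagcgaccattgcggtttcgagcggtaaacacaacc
Ccng1, chr11:40755427-40755506, minus strand: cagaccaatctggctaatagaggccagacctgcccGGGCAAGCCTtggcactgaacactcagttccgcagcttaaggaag
Bax, chr7:45467055-45467134, minus strand: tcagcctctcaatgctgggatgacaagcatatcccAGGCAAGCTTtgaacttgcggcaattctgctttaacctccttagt
Trp53, chr11:69580274-69580303, plus strand: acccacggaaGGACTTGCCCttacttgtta
Gadd45a, chr6:67037428-67037457, minus strand: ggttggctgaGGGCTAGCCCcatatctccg
Sesn1, chr10:41887256-41887285, plus strand: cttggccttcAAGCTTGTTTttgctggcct

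The Cdkn1a stretch lies just upstream of the annotated gene and holds a pair of exact decamers with 12 bases between them, and 0.359% of all windows held a pair or more. Allowing 1 mismatch over 20 bases, adjacent decamers with nothing between them occurred in 22 of the 32851 windows (0.067%), and 2 of those 22 windows belonged to members. In Cdkn1a the pair began 51 bases before the upstream start, where the second capital run is followed by a decamer with 1 mismatch. In Ccng1 it began 195 bases before the start. The Bax stretch lies inside the annotated span of Gm45808, that of Gadd45a in its own exon and in E230016M11Rik on the opposite strand, and that of Sesn1 inside its own gene at an internal start. The 8-base heat shock type motif (GAANNTTC or TTCNNGAA, each the same on both strands) was in 2 of the 12 windows, 1 of Cdkn1a and 1 of Sesn1, and in 15.1% of all windows. In Cdkn1a it shared 3 bases with the second decamer. The other Cdkn1a window, at a start inside the gene, held neither motif. A match describes the letters only.

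HT-22 cells held more RNA of most members than the hippocampus. On a scale common to all 31 libraries, the median of Cdkn1a, the cyclin-dependent kinase inhibitor p21, was 29.9 TPM in HT-22 and 4.10 in hippocampus, 7.28-fold apart. Trp53 itself was at 56.3 and 9.87 TPM, 5.71-fold apart, and the ranges of the 14 and the 17 libraries did not overlap for either gene. Ccng1, Bax and Mdm2 were 2.60-, 2.31- and 2.07-fold higher in HT-22 without overlap, and Gadd45a, Trp53inp1 and Bbc3 were 2.43-, 2.07- and 1.87-fold higher in the median with overlapping ranges. Sesn1, a stress-induced regulator of metabolic signalling, went the other way, at 14.9 TPM in HT-22 and 30.7 in hippocampus, 2.05-fold higher in hippocampus without overlap. Zmat3, which encodes an RNA-binding zinc finger protein, was within 1.16-fold. Without overlap, 5 of the 10 members were thus higher in HT-22, beside 17.2% of all 19597 genes with a mean of at least 1, and 1 was lower, beside 32.9%. These are levels of a dividing line and of a tissue, with no test, and TPM is per transcript length. Within HT-22 the order from the highest median was Ccng1, Trp53, Mdm2, Bax, Cdkn1a, Zmat3, Trp53inp1, Gadd45a, Sesn1 and Bbc3. In hippocampus it was Ccng1, Sesn1, Zmat3, Mdm2, Bax, Trp53inp1, Trp53, Gadd45a, Bbc3 and Cdkn1a, from 30.9 to 3.03 scaled TPM. Ccng1 was above the range of the gene next to it in both systems, and every other pair of neighbours overlapped.

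**Figure D1:**
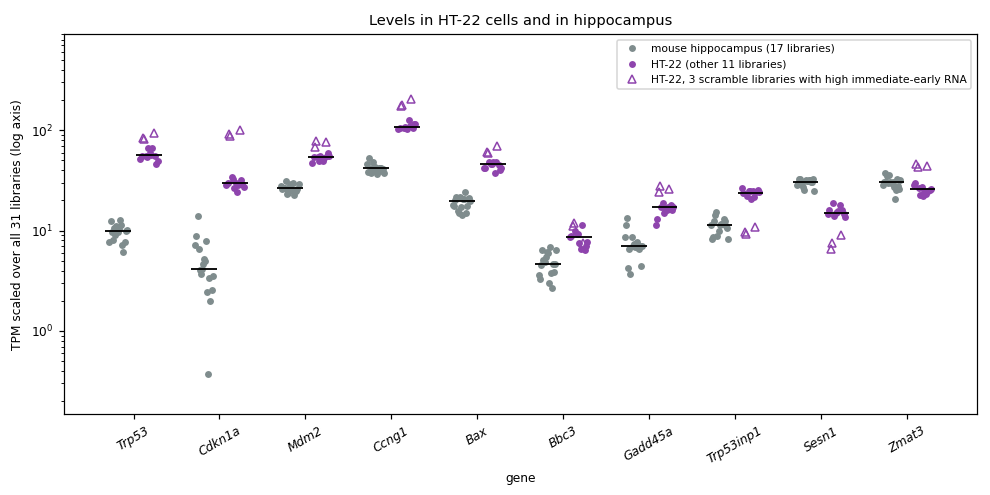
Each point is 1 library; the y axis is TPM scaled over all 31 libraries, on a log axis, for the 10 genes on the x axis, with mouse hippocampus in grey and HT-22 in purple; bars are medians and open triangles the 3 scramble libraries with high immediate-early RNA. Cdkn1a and Trp53 are separated most, 7.28- and 5.71-fold in the median, and Sesn1 is lower in HT-22.

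In HT-22 the differences between libraries of 1 group were larger than those between groups. Trp53 (ENSMUSG00000059552, GRCm38 chromosome 11, 69580359 to 69591873, plus strand) was at 73.6, 79.8, 120.2 and 118 scaled TPM in the 4 libraries with A-beta 42 and scramble, and at 85.0, 81.6, 95.5 and 135 with reverse peptide and scramble. Under anti-Hsf1 it was at 80.4, 77.3 and 94.4 with A-beta 42 and at 80.5, 66.6 and 71.3 with reverse peptide. The last 2 A-beta 42 scramble libraries and the last reverse peptide scramble library were above the remaining 11, whose range was 66.6 to 95.5.

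Cdkn1a, which binds and blocks cyclin-dependent kinases, showed the widest gap. Its gene (ENSMUSG00000023067) spans 29090976 to 29100727 on the plus strand of chromosome 17. It was at 41.0, 43.1, 133 and 126 scaled TPM with A-beta 42 and scramble, and at 43.1, 34.7, 41.0 and 144 with reverse peptide and scramble. With anti-Hsf1 it was at 49.3, 47.0 and 38.6 (A-beta 42) and at 45.7, 42.2 and 39.3 (reverse peptide). The same 3 libraries lay 2.99- to 3.40-fold above the median of the other 11, which was 42.2, and those 11 spanned no more than 1.42-fold. Its antisense neighbour AC167363.2 overlaps 1046 bases of the gene, at a mean of 5.21 TPM in HT-22, and the sources used here do not give whether counting used strand, so the source of part of these reads is uncertain.

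Ccng1, encoding cyclin G1, was at 148, 151, 252 and 257 scaled TPM with A-beta 42 and scramble and at 150.1, 181, 159 and 292 with reverse peptide and scramble, and the 6 anti-Hsf1 libraries were at 150.2 to 165. Gadd45a, a growth arrest and DNA damage sensor (ENSMUSG00000036390, chromosome 6, 67035096 to 67037457, minus strand), was at 16.4, 18.7, 35.2 and 39.8 with A-beta 42 and scramble and at 23.9, 23.2, 24.5 and 36.6 with reverse peptide and scramble. The first 2 A-beta 42 scramble libraries held the lowest Gadd45a of all 14 and the last 2 were among the 3 highest, so that group held both ends of the range. Mdm2, the ligase that degrades p53, was at 98.6, 112 and 108 in the 3 libraries and at 68.3 to 84.5 in the other 11. Bax, which permeabilises the outer mitochondrial membrane, was at 87.4, 85.3 and 98.1 against 54.4 to 70.2, and Zmat3 at 66.7, 62.6 and 62.8 against 32.1 to 43.3. All 3 genes thus stood apart in the same libraries, by smaller factors than Cdkn1a.

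A pair of targets went the opposite way. Trp53inp1, a p53-induced nuclear protein linked to autophagy and cell death, was at 38.0, 34.0, 13.9 and 13.4 scaled TPM with A-beta 42 and scramble and at 30.0, 35.3, 31.03 and 15.6 with reverse peptide and scramble. The 6 anti-Hsf1 libraries were at 31.7 to 36.8. Sesn1 was at 21.2, 23.0, 9.47 and 10.8 with A-beta 42 and scramble, at 21.9, 22.3, 26.2 and 12.8 with reverse peptide and scramble, and at 19.6 to 27.4 under anti-Hsf1. Both were lowest in the 3 libraries in which Cdkn1a was highest. Sesn1 shares 2584 bases with 9930024M15Rik on its own strand, at a mean of 3.86 TPM in HT-22, and reads between the 2 could be divided either way.

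In all, 7 members were higher in each of the 3 libraries than in any of the other 11 (Trp53, Cdkn1a, Mdm2, Ccng1, Bax, Gadd45a and Zmat3), where 15.5% of all 17224 tested genes were, and 2 were lower (Trp53inp1 and Sesn1), where 12% of all genes were. Only Bbc3 overlapped, at 16.1, 16.996 and 10.7 against 9.26 to 16.5. These libraries were set apart by their immediate-early genes and not by a label, so the counts are a description with no test. The 3 libraries also had the highest astrocyte marker sums, at 51.6 to 62.1 scaled TPM against 7.96 to 24.6, a sum in which 1 of 5 markers, Gja1, reached a mean of 1 in HT-22 while Gfap was at most 1.22 in any library, and the summed neuron and microglia markers were at most 0.537 and 1.06 in all 14. The part of depth, of the protein-coding share and of the immediate-early response in these values was not tested.

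**Figure D2:**
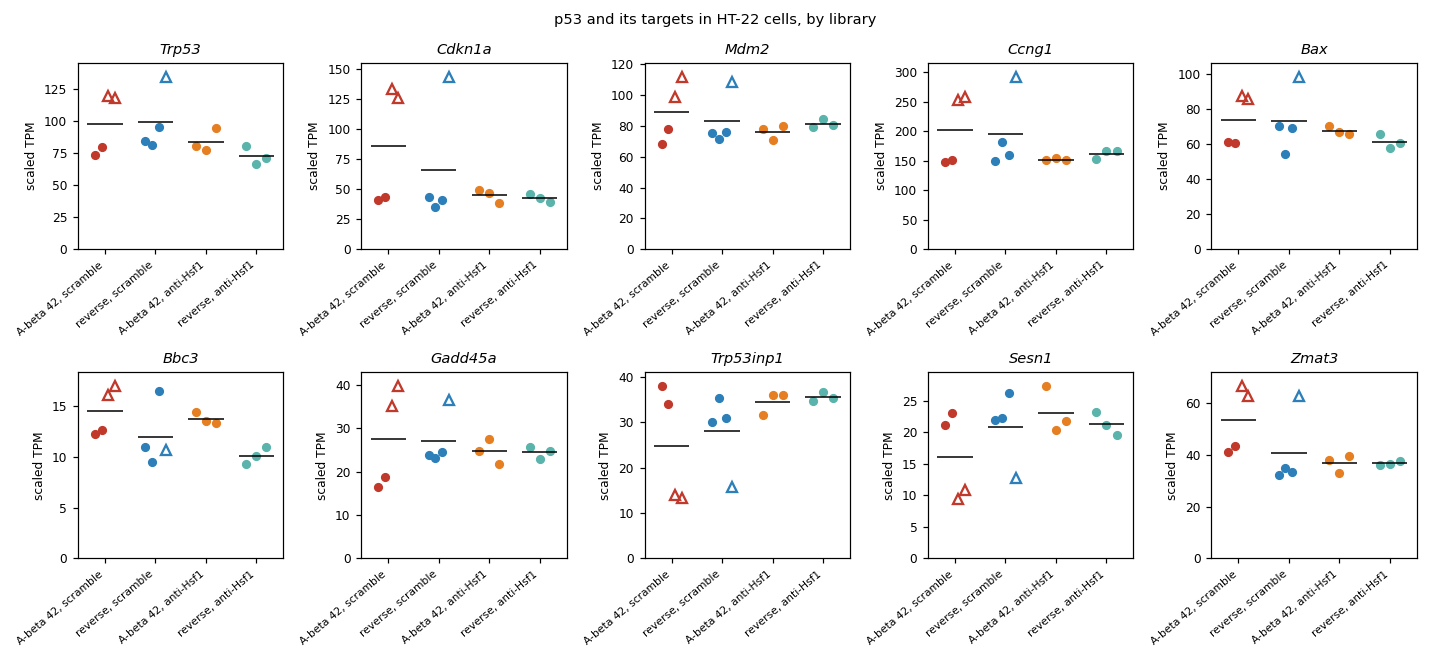
Each panel is 1 gene, the y axis is scaled TPM starting at 0, and each point is 1 HT-22 library in the group named on the x axis, with a bar at the group mean; open triangles mark the 3 scramble libraries with high immediate-early RNA. The triangles sit above all circles in 7 panels and below them for Trp53inp1 and Sesn1, for example at 126 to 144 against 34.7 to 49.3 for Cdkn1a.

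Of the wider pathway, many further targets stood apart as well. Of 28 further p53 targets, 23 passed the filter on low values, and 10 of these were above and 2 below all 11 other libraries in the 3 libraries, beside the 15.5% and 12% of all genes. Plk3 and Plk2, polo-like kinases, were at 89.0 to 91.5 and 437 to 613 scaled TPM against 6.47 to 11.5 and 98.9 to 139. Btg2, an antiproliferative factor, was at 76.9 to 93.0 against 6.70 to 12.4, and Sesn2, the paralogue of Sesn1, at 54.1 to 56.3 against 12.2 to 20.5. Plk2, Plk3 and Btg2 are known as immediate-early genes as well as p53 targets. The others above were Aen, Ephx1, Fas, Phlda3, Psrc1 and Tnfrsf10b, of which the nuclease Aen was at 48.2 to 53.9 against 9.88 to 26.0 and the death receptor Fas at 8.18 to 9.79 against 2.94 to 6.11. Ddb2, a DNA damage sensor of nucleotide excision repair, and Ppm1d, a phosphatase that switches off p53 signalling, were below. Among 15 regulators that passed the filter, 12 overlapped, the acetyltransferase Kat5 was above and the damage kinases Atm and Chek2 were below, Atm at 17.4 to 21.9 against 23.6 to 35.3. Over all tested genes 27.5% did not overlap in either direction, so overlap is not particular to regulators. Of 10 proliferation genes, Cdc20 was above, Mki67, Aurkb and Bub1 were below, and the others overlapped, beside the same 15.5% and 12% of all genes. Mki67, the common marker of dividing cells, was at 82.6 to 85.3 in those libraries against 106 to 129. The sum of the 10 proliferation genes overlapped, at 1023 to 1099 scaled TPM against 1072 to 1173.

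**Figure D3:**
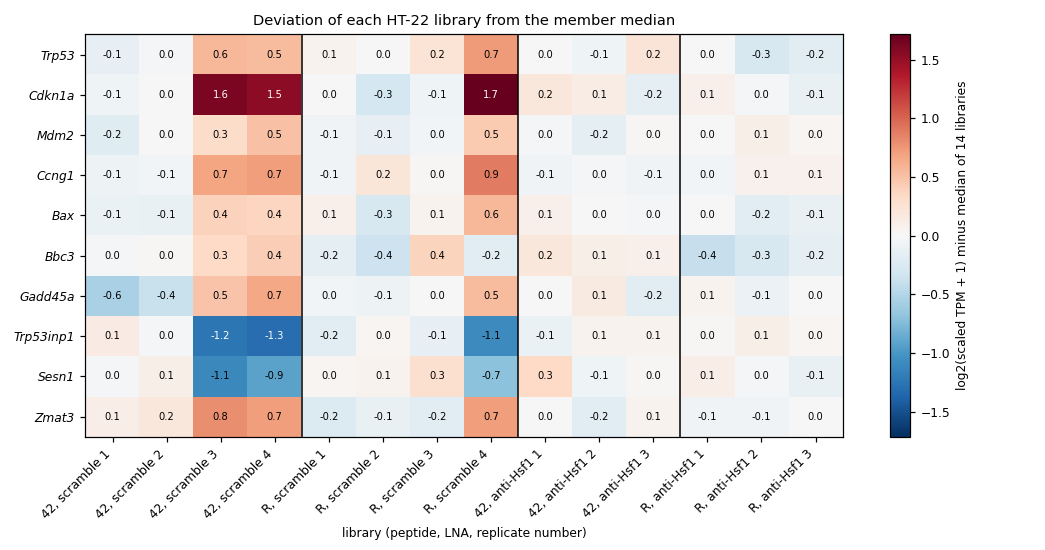
Rows are the 10 genes and columns the 14 HT-22 libraries, ordered by group; colour and number give log2(scaled TPM + 1) minus the median of the gene over the 14 libraries. The columns of A-beta 42 scramble 3 and 4 and reverse peptide scramble 4 hold the deviations of Cdkn1a furthest above 0 (1.5 to 1.7) and of Trp53inp1 furthest below.

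Outside those 3 libraries the members did not rise and fall as a unit. Over the other 11 HT-22 libraries the 45 pairs of members had a median Pearson r of 0.01 on log2(scaled TPM + 1), from -0.75 for Gadd45a with Zmat3 to 0.65 for Cdkn1a with Bax, and 5 pairs were over 0.5. Over the 17 mouse libraries the median was 0.03, from -0.64 for Gadd45a with Trp53inp1 to 0.45 for Cdkn1a with Zmat3. These values are descriptions over libraries that share a scaling. No r over all 14 HT-22 libraries is given, since they fall into separate clusters.

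Which genes followed Trp53, Cdkn1a and Mdm2 most closely was read in the same way. In mouse, Supt5 (r 0.90) and Cactin (0.82) were most like Trp53, Rundc1 (0.89) and Fscn1 (0.88) most like Cdkn1a, and Fbl (0.81) and Snapc4 (0.79) most like Mdm2, over 17 libraries. In HT-22 the genes were picked over all 14 libraries, so the 3 that stand apart weigh in the choice, and the genes are not shown to be the most alike over the other 11. Over those 11, r was 0.93 for Rangap1 and 0.84 for Calr with Trp53, 0.69 for Atic and 0.60 for Prep with Cdkn1a, and 0.76 for Ifrd1 and 0.83 for Eif4e with Mdm2. In both systems the genes were picked as the highest r among all tested genes. With this few libraries such a pick can give a high r without any relation, and no test was made. The lists of the 5 most alike genes held no member, and no gene was in the lists of both systems. Such short lists would seldom do either, so this is not a result about the members.

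The first HT-22 question was whether A-beta 42 changed the members. Under scramble LNA none of the 10 passed the limma test (0 at an unadjusted p under 0.05), and 0% of 17224 genes did. The change ran from -0.40 for Sesn1 to 0.43 for Cdkn1a, where the SE was 0.45 and the 95% interval -0.54 to 1.40. Bbc3 changed by 0.28, Zmat3 by 0.41, Trp53inp1 by -0.26, and Trp53, Mdm2, Ccng1, Bax and Gadd45a by -0.05 to 0.10. Without the 3 libraries the Cdkn1a change was 0.09 (SE 0.13), that of Bbc3 was 0.05, that of Sesn1 was -0.08 and that of Trp53inp1 was 0.16. Gadd45a was then at -0.42 (SE 0.12) and Zmat3 at 0.33 (SE 0.09), both with a limma adjusted p of 0.544. No member, and 2.35% of all genes, had libraries that did not overlap between the peptides.

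Under the libraries labelled anti-Hsf1, where none of the 3 is present, none of the 10 passed again and 0% of genes did, with 1 member at an unadjusted p under 0.05. That member was Bbc3, which encodes the BH3-only apoptosis activator PUMA (ENSMUSG00000002083, chromosome 7, 16308393 to 16318205, plus strand). It was at 14.4, 13.5 and 13.3 scaled TPM with A-beta 42 and at 9.26, 10.1 and 11.01 with reverse peptide, without overlap. The log2 change was 0.41 (SE 0.19, 95% interval 0.003 to 0.81, limma adjusted p 1), and 18.4% of all genes did not overlap in this comparison. On TPM as deposited the change was -0.13 (limma adjusted p 0.628), so its direction depended on the scaling. Mean scaling factors were 0.717 for A-beta 42 and 1.07 for reverse peptide under anti-Hsf1. Under scramble Bbc3 was at 12.3, 12.7, 16.1 and 16.996 with A-beta 42 and at 10.98, 9.51, 16.5 and 10.7 with reverse peptide, with overlap and a change of 0.28 (limma adjusted p 0.953). Averaged over both LNAs Bbc3 was higher by 0.34 (SE 0.12, 95% interval 0.07 to 0.61, unadjusted p 0.0161, limma adjusted p 0.977), and by 0.23 without the 3 libraries (limma adjusted p 0.654). In that averaged comparison 0% of all genes and 0 of 10 members were called, with 1 member at an unadjusted p under 0.05. The other 9 changed by -0.15 (Trp53inp1) to 0.25 (Cdkn1a), and by -0.21 (Gadd45a) to 0.16 (Zmat3) without the 3 libraries. Bbc3 coverage was 1.18 to 3.80 reads per base in HT-22, the lowest of the members there. The other 9 changed by -0.10 to 0.20 under anti-Hsf1, all with intervals that include 0.

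The second question was whether the libraries labelled anti-Hsf1 differed from scramble. With reverse peptide 0 of 10 members (0 at an unadjusted p under 0.05) and 0% of genes passed limma. Trp53 was the member that did not overlap, at 80.5, 66.6 and 71.3 under anti-Hsf1 and 81.6 to 135 under scramble, and 5.97% of all genes did not overlap. Its change was -0.42 (SE 0.20, 95% interval -0.85 to 0.02, limma adjusted p 0.959), and -0.26 without reverse peptide scramble number 4. The other 9 changed by -0.36 (Cdkn1a) to 0.40 (Trp53inp1), and by -0.23 (Bbc3) to 0.15 (Trp53inp1) without those 3 libraries.

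The 3 libraries with A-beta 42 and anti-Hsf1 had 30.1% to 42.1% of TPM in protein-coding genes, below the 48.1% to 61.8% of the other 11, and its part in the next values was not tested. With A-beta 42, 0 of 10 members were called and 0.0232% of genes were, with 1 member at an unadjusted p under 0.05. Zmat3 was that member and the only one without overlap, at 38.1, 32.9 and 39.5 under anti-Hsf1 and 41.2, 43.3, 66.7 and 62.6 under scramble, where 8.53% of all genes did not overlap. It changed by -0.50 (SE 0.22, limma adjusted p 0.549), and by -0.20 without the 3 scramble libraries high in immediate-early RNA. Of these, A-beta 42 numbers 3 and 4 are in this comparison and reverse peptide number 4 is in the same fit. Cdkn1a changed by -0.71 (SE 0.49, 95% interval -1.76 to 0.33) and by 0.09 (SE 0.13) without those 3 scramble libraries, Sesn1 by 0.58 and 0.05, and Trp53inp1 by 0.61 and -0.06. Gadd45a changed by -0.06 with all libraries and by 0.46 (SE 0.12, limma adjusted p 0.391) without them. Of the 10 members, 8 were lower and 2 higher. The direction of 8 turned when those 3 scramble libraries were left out, of which 7 went from lower to higher and Trp53inp1 from higher to lower. The interaction of LNA and peptide called 0 of 10 members (0 at an unadjusted p under 0.05) and 0% of genes, with changes from -0.41 for Zmat3 to 0.50 for Sesn1. Without those 3 scramble libraries the interaction ran from -0.33 for Zmat3 to 0.43 for Gadd45a. No further target (23 tested), regulator (15) or proliferation gene (10) was called in any of the HT-22 comparisons, with 0 to 2, 0 to 1 and 0 to 1 at an unadjusted p under 0.05. These comparisons share libraries with each other, so their values stand side by side and are not independent.

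In mouse hippocampus, Cdkn1a was the member with the largest change between the genotypes averaged over ages. At 3 months it was at 5.31, 6.51 and 10.2 scaled TPM in APP and at 3.73 and 5.79 in WT, with overlap. At 6 months it was at 4.80, 2.99 and 2.64 in APP and at 1.84, 0.284 and 2.50 in WT, and at 12 months at 3.03, 3.43 and 3.86 in APP and at 1.497, 1.87 and 2.69 in WT. The groups did not overlap at 6 and 12 months, where genotype cannot be told apart from the presence of Y-linked RNA. The average over ages below includes those ages. The log2 change was 0.52 (95% interval -0.26 to 1.29) at 3 months, 0.91 (SE 0.33, 0.21 to 1.60) at 6 months and 0.57 (-0.12 to 1.27) at 12 months, and the limma adjusted p was 0.603, 0.166 and 0.824. Averaged over ages it was 0.66 (SE 0.20, 95% interval 0.25 to 1.083, unadjusted p 0.0041, limma adjusted p 0.17). The change therefore did not pass the test in any of the 4 comparisons. Coverage of Cdkn1a was 0.0386 to 4.93 reads per base in mouse, and 0.0386 in the WT library of 6 months at 0.284 scaled TPM, so these levels rest on few reads. Without that library, WT number 2, the Cdkn1a change in WT at 12 against 6 months went from 0.35 to -0.08. The WT level at 6 months, and with it the genotype change there, thus depended on 1 library. On TPM as deposited, without scaling, the averaged change was 0.79 and passed (limma adjusted p 0.0251), as did that at 6 months (1.36, limma adjusted p 0.00218). Every member but Gadd45a passed at 6 months on that scale, where mean scaling factors were 1.27 for APP and 0.768 for WT. The share of all genes that passed on that scale is not given, so these calls are not a result about Cdkn1a.

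**Figure D4:**
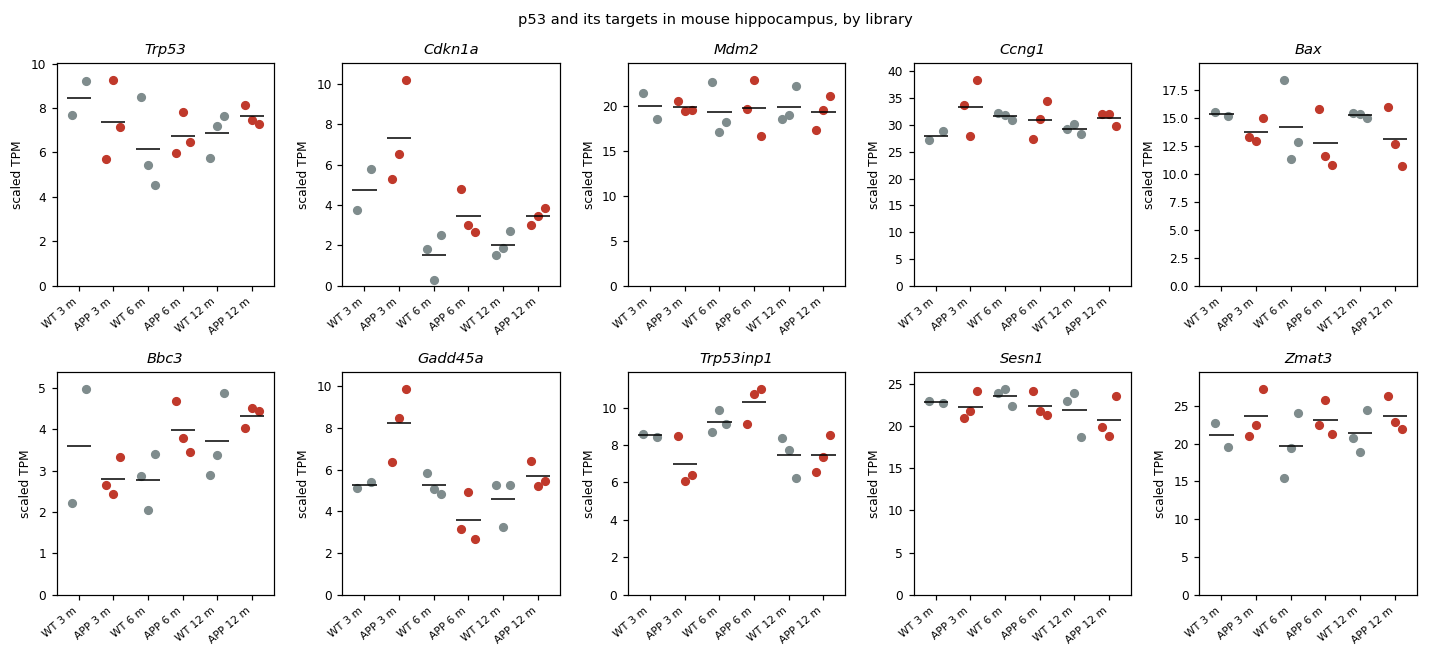
Each panel is 1 gene, the y axis is scaled TPM starting at 0, and each point is 1 mouse, grey for WT and red for APP, with a bar at the group mean and age in months (m) on the x axis. Cdkn1a is higher in APP than in WT without overlap at 6 months (2.64 to 4.80 against 0.284 to 2.50) and 12 months (3.03 to 3.86 against 1.497 to 2.69), and Mdm2, Sesn1 and Trp53 overlap at every age. At 6 and 12 months genotype cannot be told apart from the presence of Y-linked RNA.

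At 3 months, 0 of 10 members were called between APP and WT by limma and 1 had an unadjusted p under 0.05, against 0.304% of all genes called. Gadd45a was at 6.36, 8.45 and 9.88 scaled TPM in APP and at 5.10 and 5.42 in WT, a change of 0.54 (SE 0.22, 95% interval 0.07 to 1.02, limma adjusted p 0.299), without overlap. Oligodendrocyte markers were at a sum of 1047 to 1783 in APP and 989 to 1006 in WT, astrocyte markers at 846 to 997 and 999 to 1051, and endothelial markers at 8.04 to 10.6 and 6.60 to 7.99, all without overlap, and their part in the values of 3 months was not tested. Bax was at 13.3, 12.9 and 14.9 in APP and at 15.5 and 15.2 in WT, also without overlap, with a change of -0.15 (95% interval -0.56 to 0.26). With 3 against 2 libraries 27.1% of all genes did not overlap. The other 7 members changed by -0.27 (Trp53inp1) to 0.24 (Ccng1), beside the 0.52 of Cdkn1a. Gadd45a shares 859 bases with E230016M11Rik on the opposite strand, at a mean of 1.51 TPM in mouse. APP numbers 2 and 3, which held the 2 higher Gadd45a values, also had the highest summed immediate-early RNA of the mouse libraries, at 282 and 276 scaled TPM against 64.1 to 155 in the other 15. Without those libraries, a choice made after seeing the data, the Gadd45a change was 0.24 (limma adjusted p 0.729) and that of Cdkn1a was 0.16. Of 13 regulators tested, Cop1, a ubiquitin ligase for p53, was called, at 39.3, 47.2 and 52.1 in APP and 23.6 and 27.9 in WT (0.81, SE 0.16, limma adjusted p 0.0453). The call was lost with only the compared groups fitted (limma adjusted p 0.53), without WT number 1 or 2 or APP number 2 (limma adjusted p 0.233, 0.155 and 0.0808, with changes of 0.70, 0.93 and 0.80) and without APP numbers 2 and 3 together (0.1), where 1 APP library is assumed to vary like the other groups. None of 19 further targets was called (3 at an unadjusted p under 0.05).

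At 6 months, 0 of 10 members were called by limma, 2 had an unadjusted p under 0.05, and 1.71% of all genes were called. Those 2 were Cdkn1a, above, and Gadd45a, which was at 3.13, 4.92 and 2.67 in APP and at 5.82, 5.09 and 4.83 in WT, a change of -0.48 (SE 0.20, limma adjusted p 0.237). That direction depended on the scaling, since the change was 0.10 on TPM as deposited (limma adjusted p 0.685), and 36.2% to 51.0% of TPM lay in protein-coding genes in APP against 26.6% to 28.5% in WT. Gadd45a thus had its lowest group mean, 3.57 scaled TPM, in APP at 6 months and its highest, 8.23, in APP at 3 months. Bbc3 was at 4.69, 3.79 and 3.45 in APP and at 2.87, 2.05 and 3.41 in WT, a change of 0.41 (limma adjusted p 0.382). Bbc3 coverage was 0.725 to 1.56 reads per base in mouse, so its levels rest on few reads as well. Cdkn1a and Bbc3 were the members that did not overlap, where 21.3% of all genes did not. Choroid plexus markers were at a sum of 33.5 to 883 in APP and 1111 to 1315 in WT, and astrocyte markers at 1144 to 1380 and 995 to 1135, both without overlap. Microglia sums were 71.3 to 136 and 84.4 to 105, with overlap, and the part of these cell types in the values of 6 months was not tested. The other 7 members changed by -0.14 (Bax) to 0.24 (Zmat3). Of the regulators, Ppp1r13b, which encodes the p53 cofactor ASPP1, was called, at 24.3, 25.0 and 25.2 in APP and 19.3, 18.97 and 17.4 in WT (0.40, SE 0.09, limma adjusted p 0.0414), and that call was lost without any 1 of the 6 libraries (limma adjusted p 0.0655 to 0.119, with changes of 0.36 to 0.43). None of 19 further targets was called (1 at an unadjusted p under 0.05).

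At 12 months, 0 of 10 members were called by limma, 0 had an unadjusted p under 0.05, and 0.433% of all genes were called. Cdkn1a alone did not overlap, where 15.6% of all genes did not. Trp53 was at 8.13, 7.48 and 7.27 in APP and at 5.75, 7.21 and 7.63 in WT, and the other 8 members overlapped as well. The change was 0.14 for Trp53 and Zmat3, 0.28 for Gadd45a, 0.20 for Bbc3, 0.09 for Ccng1, 0.01 for Trp53inp1, -0.04 for Mdm2, -0.07 for Sesn1 and -0.22 for Bax. None of 19 further targets (1 at an unadjusted p under 0.05) and none of 13 regulators (0) was called by limma. The microglia markers were at a sum of 193 to 254 scaled TPM in APP and 86.7 to 97.9 in WT and the astrocyte markers at 1425 to 1588 and 1065 to 1088. Endothelial sums were 9.88 to 11.2 and 5.57 to 7.26, choroid plexus sums 1390 to 1609 and 414 to 1277, and oligodendrocyte sums 734 to 864 and 662 to 720. None of these overlapped, and their part in the Cdkn1a values was not tested. The change of the genotype difference from 3 to 12 months called 0 of 10 members (0 at an unadjusted p under 0.05) and 0.0732% of all genes, with member values from -0.27 (Gadd45a) to 0.41 (Bbc3), and averaged over ages 0 of 10 members (1 at an unadjusted p under 0.05, Cdkn1a) and 0.242% of genes were called.

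**Figure D5:**
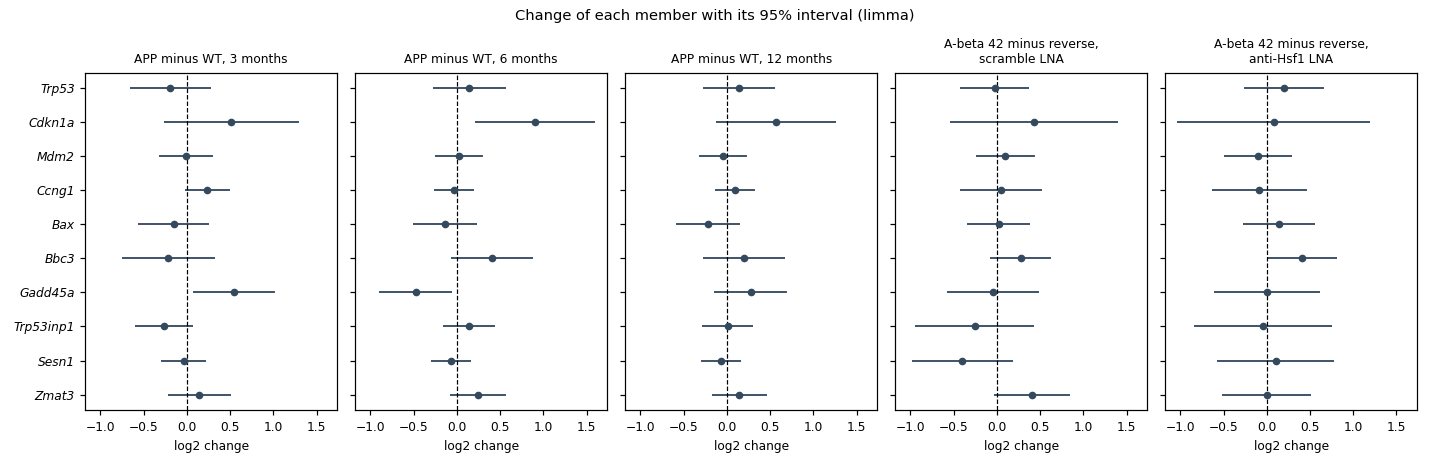
Points are log2 changes on log2(scaled TPM + 1) for the 10 genes (rows) in 5 comparisons (panels), and bars are 95% intervals from limma. The Cdkn1a interval lies above 0 at 6 months (0.21 to 1.60), Gadd45a lies above 0 at 3 months and below 0 at 6 months, and Bbc3 is above 0 under anti-Hsf1. On TPM as deposited, Gadd45a at 6 months and Bbc3 under anti-Hsf1 changed in the opposite direction.

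With age in APP mice, 12 against 3 months, 0 of 10 members were called by limma, although 3.27% of all genes were and 3 members had an unadjusted p under 0.05. Cdkn1a changed by -0.87 (SE 0.33, limma adjusted p 0.18) and Bbc3 by 0.49 (SE 0.22, limma adjusted p 0.285), both without overlap, where 22% of all genes did not overlap. Gadd45a changed by -0.45 with overlap. Without APP numbers 2 and 3 of 3 months the changes were -0.51 for Cdkn1a and -0.14 for Gadd45a. Phlda3, a p53 target that inhibits the kinase Akt, was the 1 of 19 further targets called. It was at 11.4, 11.9 and 11.3 scaled TPM at 3 months and at 8.61, 7.46 and 6.49 at 12 months, a change of -0.56 (SE 0.14, limma adjusted p 0.0385), and lost the call without any 1 of the 6 libraries (limma adjusted p 0.0558 to 0.168, with changes of -0.65 to -0.47). Microglia sums in the same libraries were 70.4 to 78.3 at 3 months and 193 to 254 at 12 months, oligodendrocyte sums were 1047 to 1783 and 734 to 864, and astrocyte sums were 846 to 997 and 1425 to 1588; their part was not tested. The other 7 members changed by -0.10 (Sesn1) to 0.09 (Trp53inp1). In WT, 12 against 6 months, 0 of 10 members (0 at an unadjusted p under 0.05) and 0% of genes were called. Ccng1, at 32.2, 31.8 and 30.9 and then 29.3, 30.2 and 28.4, and Trp53inp1, at 8.71, 9.86 and 9.12 and then 8.36, 7.75 and 6.24, were lower at 12 months without overlap, where 12.2% of all genes did not overlap. The changes were -0.11 and -0.28 (limma adjusted p 0.893 and 0.749), and the other 8 ran from -0.18 (Gadd45a) to 0.35 (Cdkn1a). The Cdkn1a change was -0.08 without WT number 2 of 6 months.

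The members differed in how far they spread over the 17 mice. The highest library was 1.31-fold the lowest for Sesn1, 1.38-fold for Mdm2, 1.42-fold for Ccng1, 1.72-fold for Bax and 1.76-fold for Zmat3, and 36.0-fold for Cdkn1a. The 95% interval of the genotype difference averaged over ages was -0.17 to 0.16 for Mdm2, -0.20 to 0.08 for Sesn1 and -0.22 to 0.28 for Trp53 on the log2 scale. Zmat3 changed by 0.18 (95% interval -0.02 to 0.37, limma adjusted p 0.45), and the other 5 beside Cdkn1a by -0.17 (Bax) to 0.13 (Bbc3). The median change of the 10 members averaged over ages was 0.06, with 6 above and 4 below 0, beside a median of -0.004 over all 17767 genes. Over the 13 mouse and HT-22 comparisons the median of the members lay between -0.15 and 0.12. The mouse comparisons share libraries, so these values are not independent of each other.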

How the data were processed

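Gene TPM, FPKM and coverage (mean read depth) were deposited by the authors as 1 gene table per library, per the file headers. Reads were processed with HISAT2 2.1.0 and StringTie 1.3.4d among other tools on GRCm38 (mm10), per the submitters' processing notes. TPM of repeated identifiers was summed and divided by median-of-ratios factors, per system and over all 31 libraries. limma 3.58.1 (R 4.3.3) was run on log2(scaled TPM + 1), with trend and robust moderation, over genes with a mean of at least 1 (17767 in mouse, 17224 in HT-22). All 6 mouse groups entered 1 fit and all 4 HT-22 groups another, and a gene was called at a Benjamini-Hochberg adjusted p under 0.05. The adjusted p-values are over all tested genes, and log2 changes on this scale understate changes of low genes. The code was tested on simulated data. Tables and figures used Python 3.11.15.

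The members and lists were chosen with earlier results of these data known. The rule for named genes takes all members in each comparison (by value or by range), list genes where called, and the 5 most correlated genes for Trp53, Cdkn1a and Mdm2. The averaged contrasts and the libraries left out for immediate-early RNA were added after seeing the data, and so were the list genes described in those libraries. The median residual correlation of same-numbered libraries was -0.01 in mouse and 0.01 in HT-22, beside -0.007 and 0.002 for other pairs. Of the same-numbered pairs, 3 of 40 and 3 of 19 were over 0.1, and the highest were 0.23 and 0.57. Some same-numbered libraries thus deviated together. Replicate numbers were not treated as pairs, and a fit with them as a block is given below. The short-RNA count files were not used here.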

Additional observations from a re-analysis of the deposited data

Results flagged for a closer look

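In the group with reverse peptide and scramble LNA, library number 4 lay far above the other 3 for 4 members: Cdkn1a (143.5 scaled TPM), Mdm2 (108.5), Gadd45a (36.59) and Zmat3 (62.76). With 4 values, chance gives such a gap in about 1 of 20 groups. The 4 values come from 1 library and are not independent.

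Bbc3 was lower in the 3 APP libraries than the WT mean at 3 months (a difference of -0.796 scaled TPM), and higher in all 3 at 6 months (1.199) and at 12 months (0.615). Gadd45a was higher in all 3 APP libraries at 3 months (2.971) and at 12 months (1.092) and lower in all 3 at 6 months (-1.674). The difference between 12 and 3 months gave limma adjusted p 0.745 for Bbc3 and 0.828 for Gadd45a, and those that involve 6 months were not tested. At 6 and 12 months, unlike 3 months, genotype cannot be told apart from the presence of Y-linked RNA. The same holds for the differences between 3 months and the later ages. The WT values of Bbc3 at 3 months were 2.23 and 4.98, and without WT number 2 its log2 change there was 0.23 and the difference between 12 and 3 months went from 0.41 to -0.03. On TPM as deposited the Gadd45a change at 6 months was 0.10, so its direction there depends on the scaling.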

How the results depend on the processing

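No member was called under quantile normalisation, a pseudocount of 0.1, a mean of at least 5, no filter, the compared groups fitted alone, the replicate block (0 calls), any 1 library left out (0 to 0 calls) or without the libraries high in immediate-early RNA. The lowest adjusted p among them was 0.0887, for Cdkn1a at 6 months without WT number 3. Only TPM as deposited, which keeps the shift of all coding genes, gave calls: 9 in APP against WT at 6 months, 1 averaged over ages, 1 for A-beta 42 under anti-Hsf1, 8 for anti-Hsf1 with A-beta 42 and 2 in the interaction. The share of all genes called on that scale is not given, so these counts are not a result about the members. Mean scaling factors were 1.27 for APP and 0.768 for WT at 6 months. They were 0.717 for A-beta 42 with anti-Hsf1 and 1.17 for A-beta 42 with scramble. On TPM as deposited at 6 months, Ccng1 (0.66), Bax (0.53) and Sesn1 (0.62) turned from lower to higher, as did Gadd45a (0.10), which was not called. The calls of Cop1, Ppp1r13b and Phlda3 were lost with no filter (limma adjusted p 0.0822, 0.0786 and 0.0623) and under the replicate block (0.0536, 0.0566 and 0.0605). Cop1 also lost its call under quantile normalisation (limma adjusted p 0.0565), a pseudocount of 0.1 (0.0503) and on TPM as deposited (0.184). Ppp1r13b and Phlda3 lost theirs with only the compared groups fitted (limma adjusted p 0.15 and 0.109), and Phlda3 on TPM as deposited (0.152). Low coverage limits the mouse values of Cdkn1a and of Bbc3, which was at 0.725 to 1.56 reads per base over the 17 mouse libraries.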
